A study of Mus musculus with 2 samples.

Results

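The Krüppel-like factors Klf2, Klf4, Klf5, Klf6, Klf7, Klf9, Klf10, Klf13 and Klf15 were followed through the cell classes of the mouse kidney glomerulus. These 9 genes were taken by symbol from the 31058 features counted in both libraries, of which 17 carry a symbol made of Klf and a number. Glomerular cells came from 2 healthy C57Bl/6 mice of the genotype Pax2.rtTA;TetO.Cre;R26.Confetti, 1 titled female and 1 titled male, and each mouse gave 1 droplet-based 3' single-cell library. In this system doxycycline lets cells with an active Pax2 promoter recombine a fluorescent reporter cassette. It was given at 19 days of age in both mice, which were killed at 30 days. With 1 library per group there is no replicate check, no test was run and no p-value is given. The intervals in brackets are 95% intervals that cover counting error only.

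Krüppel-like factors are zinc finger proteins that bind GC-rich and CACCC elements of promoters. Some are induced within minutes of a stimulus, together with Fos and Egr1, the classical immediate early genes. Others track cell identity, hormone state or metabolism. In the mouse glomerulus, Klf2 is known as a flow-induced factor of endothelium, and Klf4, Klf6 and Klf15 have each been studied as protective factors of podocytes, the cells that carry the filtration slit.

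The library labelled female held 67648465 UMIs in 5233 barcodes and the library labelled male 57841860 UMIs in 4974 barcodes. A UMI stands for 1 captured transcript. Of these, 4909 and 4442 cells were kept, at medians of 10672 and 9616 UMIs, and 10 barcodes occurred in both libraries. Barcodes over the mitochondrial limit of 20% made up 5.41% in the female-labelled library and 10.1% in the male-labelled library. Xist stood at 0.682 CPM and Y-linked genes at 214 CPM in the female-labelled library, against 1590 and 0.0206 CPM in the male-labelled library. The labels of both libraries thus go against their sex-linked transcripts, and no difference below is read as one between the sexes.

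A pair of values without further names belongs to the female-labelled and the male-labelled library. Cells were typed by marker genes from clusters made without the 9 members and without 24 early-response genes, and every class is called by its likeness to a cell type. There were 4078 podocyte-like cells in the female-labelled library and 3668 in the male-labelled library. The other glomerular classes were 241 and 175 mesangial-like, 112 and 90 glomerular endothelial-like, 84 and 82 arterial endothelial-like, 74 and 49 parietal epithelial-like and 44 and 63 smooth muscle or renin-like cells. Tubule cells came as 55 and 69 thick ascending limb-like, 10 and 22 proximal tubule-like and 7 and 20 distal convoluted tubule-like cells. The last 2 of these classes are shown as levels only, and also enter the correlations of profiles over classes. Transcripts of podocytes were present in every class. The 10 podocyte markers summed to 7150 and 7320 CPM in arterial endothelial-like cells, 6210 and 6030 in thick ascending limb-like, 5240 and 3640 in smooth muscle or renin-like, 3950 and 1850 in mesangial-like, 1690 and 1900 in glomerular endothelial-like and 1520 and 724 in parietal epithelial-like cells, against 25400 and 26600 CPM in podocyte-like cells. The part of these transcripts in the levels below was not tested.

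Promoter sequence is shown for the 3 members that moved with Fos and Egr1 in podocyte-like cells (Klf2, Klf4 and Klf6) and for 2 that moved with them less (Klf9 and Klf15). Each run holds the 250 bases before the RefSeq start on GRCm38.p6, read 5′ to 3′ along the gene. RefSeq promoters were at hand for 7 of the 9 members. Capitals mark the CRE core site TGACG and the E-box CACGTG, the AP-1 site TGANTCA and the MEF2 box, searched on both strands, so that CGTCA is a CRE core site of the opposite strand. The last bases of the Klf2 and Klf6 windows, and the whole of the Klf7 window, lie past the gene start that GENCODE M21 gives.
Klf2, chr8:72318812-72319061, plus strand: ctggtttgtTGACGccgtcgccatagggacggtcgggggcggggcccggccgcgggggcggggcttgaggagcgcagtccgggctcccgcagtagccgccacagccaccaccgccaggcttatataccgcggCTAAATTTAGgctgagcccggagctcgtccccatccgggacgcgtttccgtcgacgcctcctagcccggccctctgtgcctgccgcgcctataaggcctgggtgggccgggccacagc
Klf4, chr4:55532476-55532725, minus strand: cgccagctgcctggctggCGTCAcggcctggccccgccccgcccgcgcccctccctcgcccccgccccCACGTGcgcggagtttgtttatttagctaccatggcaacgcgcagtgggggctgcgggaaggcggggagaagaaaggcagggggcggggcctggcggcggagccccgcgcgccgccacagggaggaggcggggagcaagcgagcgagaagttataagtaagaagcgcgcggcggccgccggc
Klf6, chr13:5861239-5861488, plus strand: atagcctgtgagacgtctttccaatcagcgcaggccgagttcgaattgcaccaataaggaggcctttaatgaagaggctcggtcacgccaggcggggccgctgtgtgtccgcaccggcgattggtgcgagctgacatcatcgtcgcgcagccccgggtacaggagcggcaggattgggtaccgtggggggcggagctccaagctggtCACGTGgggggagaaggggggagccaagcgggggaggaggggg
Klf9, chr19:23140976-23141225, plus strand: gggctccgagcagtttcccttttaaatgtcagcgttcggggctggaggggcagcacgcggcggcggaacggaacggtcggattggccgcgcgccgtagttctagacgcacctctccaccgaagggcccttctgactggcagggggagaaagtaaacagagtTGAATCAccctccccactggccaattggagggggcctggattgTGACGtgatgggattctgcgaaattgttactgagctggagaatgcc
Klf15, chr6:90462326-90462575, plus strand: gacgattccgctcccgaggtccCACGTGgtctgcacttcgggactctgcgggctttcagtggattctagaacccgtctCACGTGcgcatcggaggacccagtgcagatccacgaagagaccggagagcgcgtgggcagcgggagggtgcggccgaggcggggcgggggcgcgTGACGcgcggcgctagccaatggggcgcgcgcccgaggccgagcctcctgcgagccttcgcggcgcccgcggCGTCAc

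The Klf2 window held a MEF2 box at 118 to 109 bases before the start, a motif found in 2.92% of 32851 promoter windows of the same length, and a CRE core site at 241 to 237. MEF2 factors are known to drive Klf2 in endothelium. The Klf4 window held a CRE core site at 232 to 228 and an E-box at 182 to 177, and the Klf6 window an E-box at 43 to 38. Klf9 had an AP-1 site at 89 to 83 and a CRE core site at 46 to 42. Klf15 had E-boxes at 228 to 223 and 172 to 167 and CRE core sites at 78 to 74 and 6 to 2, and Klf13 a CRE core site at 56 to 52. CRE core sites were in 17.8% of all windows, E-boxes in 6.02% and AP-1 sites in 6.75%. The CArG box, bound by the serum response factor that drives many immediate early genes, was in 1.47% of all windows and in none of the 7. The GC box GGGCGG, a common site of this family, was in 32.7% of all windows. In the Klf7 window, which lies inside the gene by GENCODE M21, it was the only motif found. The 3 members that moved with Fos and Egr1 shared no motif that the others lacked.

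The highest levels of the family lay in endothelium. Levels are CPM of counts summed over the cells of a class in 1 library, and since a UMI stands for 1 transcript whatever its length, members can be set side by side. Klf2, which in endothelium responds to blood flow, was at 2090 CPM (2000 to 2180) in arterial endothelial-like cells of the female-labelled library and at 1820 (1730 to 1910) in the male-labelled library. Glomerular endothelial-like cells had 1730 and 1970 CPM, and podocyte-like cells 431 and 264 CPM. Both endothelial classes stood above every other class in both libraries, while their own order differed between the libraries. Mesangial-like cells followed with 701 and 653 CPM, then smooth muscle or renin-like cells with 495 and 478. The tubule and parietal epithelial-like classes were lowest, from 64.9 to 155 CPM, and neighbours among them had overlapping intervals.

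Klf4, which shares many endothelial functions with Klf2 and also works in epithelia, was at 1160 and 1320 CPM in arterial endothelial-like cells of the female-labelled and male-labelled libraries. Glomerular endothelial-like cells held 731 and 1170 CPM, and podocyte-like cells 211 and 186 CPM. Unlike Klf2, it was also high in parietal epithelial-like cells, which line the capsule around the tuft, with 604 CPM (569 to 641) and 625 CPM (575 to 679), 2.86-fold and 3.36-fold above podocyte-like cells. Klf2 went the other way there: 139 and 87.8 CPM were 0.322-fold and 0.333-fold the podocyte level. Proximal tubule-like cells held Klf4 at 165 and 405 CPM, from 10 and 22 cells. It was near the bottom of the order in mesangial-like cells, at 65.7 and 119 CPM, where Klf2 ranked next after endothelium.

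Klf7, known mainly from neuronal development, was highest in glomerular endothelial-like cells, with 436 and 518 CPM against 135 and 107 CPM in podocyte-like cells. It was the one member that stood higher in glomerular than in arterial endothelial-like cells in both libraries with intervals clear of 1, by 1.43-fold (1.25 to 1.65) and 1.75-fold (1.49 to 2.06). Klf6 was lower in glomerular than in arterial endothelial-like cells, by ratios of 0.553 (0.48 to 0.635) and 0.562 (0.465 to 0.676), and Klf4 by 0.633 and 0.882. For Klf2 that ratio was 0.825 in the female-labelled library and 1.08 in the male-labelled library, on either side of 1. The arterial endothelial-like class carried more podocyte marker RNA than the glomerular one, 7150 and 7320 against 1690 and 1900 CPM, and its part in these ratios was not tested.

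Klf13, a member with a Sin3a-binding repressor domain, was at 380 and 406 CPM in glomerular and 348 and 378 CPM in arterial endothelial-like cells, against 166 and 148 CPM in podocyte-like cells. Klf9, a hormone-responsive member, lay within a narrow range over most classes. It had 528 and 469 CPM in glomerular endothelial-like cells, between 273 and 492 CPM in 6 further classes, and 226 and 195 CPM in podocyte-like cells, with distal convoluted tubule-like cells lowest at 107 and 146 CPM. Klf10, a gene induced early by transforming growth factor beta, was sparse. Glomerular endothelial-like cells held 52.4 and 72.7 CPM of it, arterial endothelial-like cells 58.2 and 51.7, parietal epithelial-like cells 54.7 and 61.8, and podocyte-like cells 16.0 and 12.4 CPM.

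Counted by a fixed size, 6 of the 8 members at 20 CPM or more (Klf2, Klf4, Klf7, Klf9, Klf10 and Klf13) were at least 2-fold above podocyte-like cells in both libraries in glomerular endothelial-like cells. The same held for 20% of all genes tested there, and the reverse, 2-fold below, for 12.1% (Klf6 and Klf15 among the members). In arterial endothelial-like cells the same 6 of 8 were above, against 15.4% of all genes, and Klf15 was below, against 8.9%. Parietal epithelial-like cells had 3 of 9 above (Klf4, Klf5 and Klf10, with 18.5% of all genes) and Klf2 below (8.34%). In mesangial-like cells no member of 7 was 2-fold above (18.0% of genes) or below (9.5%) in both libraries. Smooth muscle or renin-like cells had none of 8 above (14.6%) and Klf6 below (10.2%). Thick ascending limb-like cells had Klf5 of 9 above (14.9%) and Klf2 and Klf7 below (9.83%). A gene, member or not, was counted where it reached 20 CPM in the class or in podocyte-like cells, in either library. Klf5 and Klf10 reached it only in the other classes, and Klf15 in the endothelial comparisons only in podocyte-like cells. Their calls thus rest in part on this minimum and add little to the counts. Cells were typed from their own transcripts, so these class differences are descriptions.

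**Figure D1:**
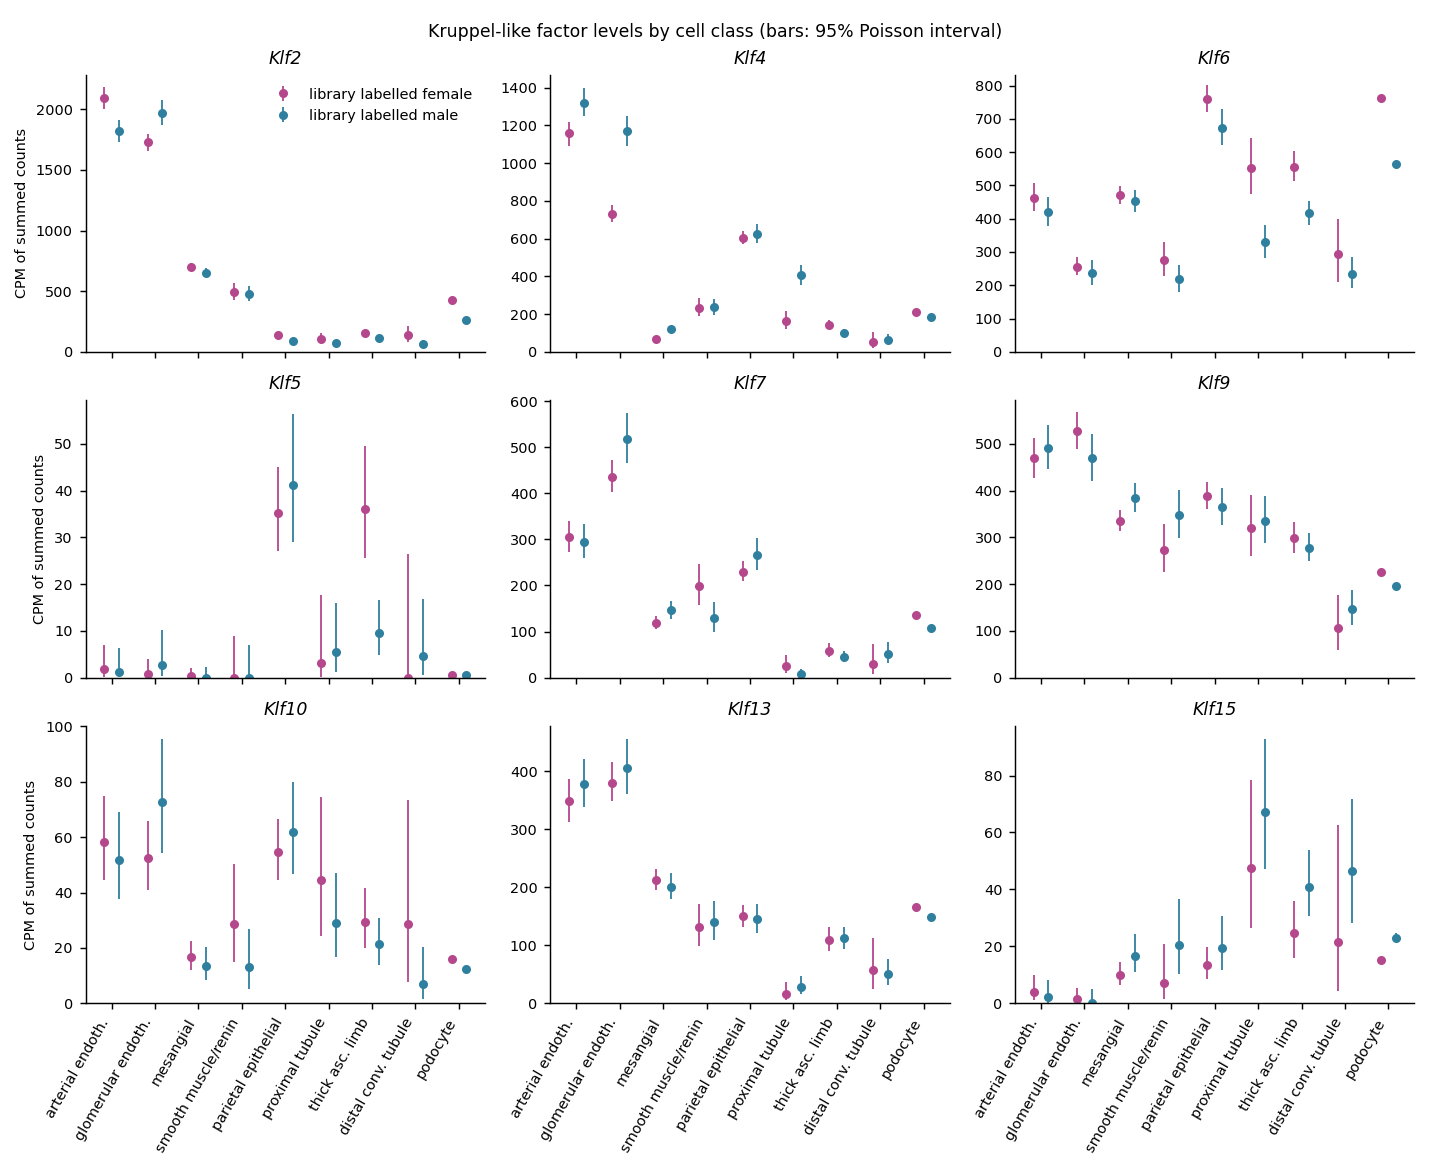
Levels of the 9 members (CPM of summed counts, linear axes from 0, 1 panel each) in 9 cell classes, with the female-labelled library left of the male-labelled library and 95% Poisson intervals. Klf2 and Klf4 peak in both endothelial classes, Klf5 in parietal epithelial-like and, in 1 library, thick ascending limb-like cells, and Klf15 in tubule classes, while Klf6 is lowest in glomerular endothelial-like and smooth muscle or renin-like cells.

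Klf6 did not share the endothelial peak of Klf2 and Klf4. This factor, induced on injury and known in podocytes for control of a mitochondrial assembly gene, was at 762 CPM (754 to 769) in podocyte-like cells of the female-labelled library and 563 CPM (556 to 571) in the male-labelled library. Parietal epithelial-like cells held 761 and 673 CPM, 0.999-fold (0.945 to 1.05) and 1.19-fold (1.1 to 1.29) the podocyte level. Glomerular endothelial-like cells held 256 and 236 CPM, 0.336-fold and 0.42-fold the podocyte level. Smooth muscle or renin-like cells (275 and 218 CPM) and distal convoluted tubule-like cells (293 and 234) were about as low. Arterial endothelial-like cells held 463 and 421 CPM, 0.609-fold and 0.747-fold the podocyte level, close to mesangial-like cells at 470 and 453 CPM. In podocyte-like cells of both libraries Klf6 was the most abundant member, and in both endothelial classes Klf2 was. In the glomerular endothelial-like class of the female-labelled library, Pdgfrb, a mesangial marker, stood at 161 CPM, against 4.2 CPM in the male-labelled library. Without the 5 cells there with 2 or more Pdgfrb UMIs, Klf6 was at 211 CPM, Klf2 at 1810 and Klf4 at 688 CPM.

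Klf5 was found mainly in parietal epithelial-like and thick ascending limb-like cells. This factor of epithelial progenitors and of the collecting duct was at 35.2 CPM (27.0 to 45.0, 63 UMIs in 27 cells) and 41.2 CPM (29.1 to 56.5, 38 UMIs in 17 cells) in parietal epithelial-like cells, against 0.561 and 0.482 CPM in podocyte-like cells. Of parietal epithelial-like cells 36.5% and 34.7% held a Klf5 UMI, at median depths of 16004 and 14537 UMIs, against 0.613% and 0.409% of podocyte-like cells at 10724.5 and 9711.5 UMIs. With every cell thinned to 3000 UMIs the shares were 5.41% and 16.3%, against 0.049% and 0.109%. Thick ascending limb-like cells held 36.0 and 9.47 CPM, from 38 UMIs in 7 cells and 12 UMIs in 8 cells. That class also carried 4 collecting duct markers at a summed 185 and 564 CPM, beside 15900 and 16200 CPM of its own 5 markers, and their part in the Klf5 level was not tested. Mesangial-like cells had 1 UMI and none, and smooth muscle or renin-like cells none in either library, which allows up to 7.18 and 5.6 CPM.

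Klf15, which in mouse podocytes promotes differentiation and elsewhere drives amino acid catabolism, was low everywhere. Proximal tubule-like cells had 47.6 CPM (26.6 to 78.5) and 67.2 CPM (47.3 to 92.7), thick ascending limb-like cells 24.7 and 41.0 CPM, and podocyte-like cells 15.3 and 23.1 CPM. Thick ascending limb-like cells stood 1.61-fold (1.05 to 2.38) and 1.78-fold (1.32 to 2.35) above podocyte-like cells. Parietal epithelial-like cells (13.4 and 19.5 CPM), mesangial-like cells (9.87 and 16.6) and smooth muscle or renin-like cells (7.18 and 20.5) were not 2-fold apart from podocyte-like cells in both libraries. Endothelium was nearly devoid of it: glomerular endothelial-like cells held 2 UMIs (1.45 CPM) in the female-labelled library and 0 in the male-labelled library, which allows up to 4.2 CPM, and arterial endothelial-like cells held 4 and 2 UMIs. Klf15 and Klf2 were near mirror images across classes, with a Pearson r of -0.895 over the 18 class and library points on the log2(CPM + 10) scale. Klf15 had -0.903 with Klf7 and -0.896 with Klf13, while Klf7 and Klf13 had 0.898 with each other. The points include the proximal and distal convoluted tubule-like classes, with 7 to 22 cells a library, where the mean Klf15 level was highest. Points of 1 class share their cell type and points of 1 library their depth, so these are descriptions over few independent points.

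Likeness of profile was taken over the same points, small tubule classes included. Among 6820 genes, those most like Klf15 were Suclg1 (r of 0.919), Mccc1 (0.917) and Aldh6a1 (0.912). They encode mitochondrial enzymes of succinyl-CoA metabolism and of branched-chain amino acid and valine breakdown. Klf5 was most like Sfn (0.955), Bmp3 (0.932) and L1cam (0.915). Klf13 had Itpripl2 (0.978), Arhgef10 (0.959) and Arhgef1 (0.953) nearest, and Klf2 had Fbxw2 (0.953), Rhoa (0.949) and Ehd4 (0.946). For Klf7 they were Rbm22, Prrc2c and Pxdn (0.94 each), for Klf4 Tpt1 (0.904), Ets2 (0.892) and Sirt1 (0.887), and for Klf9 Aebp2 (0.922), Snhg12 (0.895) and Casp8 (0.892). Klf10 (Eif3f at 0.871, Ankrd29 at 0.849, Mospd2 at 0.844) and Klf6 (Smim1 at 0.835, Cops3 at 0.82, Borcs8 at 0.811) had the weakest best matches.

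Within podocyte-like cells, Klf2, Klf4 and Klf6 moved with Fos and Egr1, and the other members moved with them less or not measurably. Pearson r was taken across the cells of 1 library, each thinned to 3000 UMIs, on log values. Klf2 had r of 0.541 with Fos and 0.546 with Egr1 in the female-labelled library, and 0.47 and 0.46 in the male-labelled library. Klf4 had 0.453 and 0.468, then 0.45 and 0.477. Klf6 had 0.567 and 0.552, then 0.472 and 0.455. Fos and Egr1 themselves had 0.797 and 0.73 with each other. At r of 0.2 or more with both genes in both libraries, 3 of the 6 members at 20 CPM or more in both libraries were called early-response, against 0.814% of 5895 genes. The mean r of Klf2, Klf4 and Klf6 lay at percentiles 99.8, 99.7 and 99.8 of those genes. Correlation across cells of 1 library also reflects whatever else varies between them, and the part of tissue dissociation was not tested.

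Klf7, Klf9 and Klf13 were intermediate. Klf9 had r of 0.171 with Fos and 0.168 with Egr1 in the female-labelled library, and 0.104 and 0.11 in the male-labelled library. Klf7 lay between 0.115 and 0.16 and Klf13 between 0.0518 and 0.122. Klf10, Klf15 and Klf5 stayed under 0.1 in size throughout, and so met the rule for stable genes, as did 95.4% of the genes tested. All 3 were under 20 CPM in at least 1 library, and r shrinks towards 0 in counts this sparse. Klf10 in particular reached up to 0.0896.

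**Figure D2:**
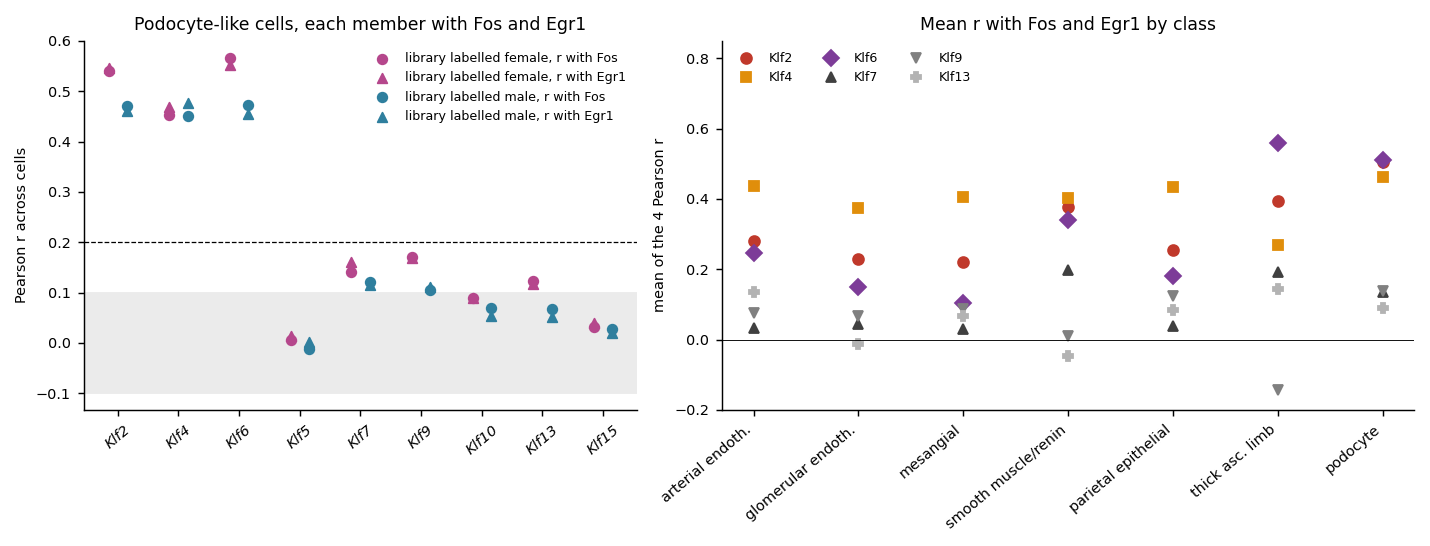
Left, Pearson r of each member with Fos (circles) and Egr1 (triangles) across podocyte-like cells of the female-labelled library and the male-labelled library; the dashed line is the early-response limit of 0.2 and the grey band the stable range. Right, the mean of the 4 values by cell class for the 6 more abundant members. Klf2, Klf4 and Klf6 lie between 0.45 and 0.567 in podocyte-like cells, and Klf4 keeps a mean over 0.26 in all 7 classes.

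Summed counts gave a measure that does not shrink with sparse counts. Podocyte-like cells of each library were ranked into 5 equal bins by their Fos and Egr1 UMIs, a range of 1 score and not a cell type. From the lowest to the highest bin, Klf2 was at 26.6, 99.0, 241, 580 and 1110 CPM in the female-labelled library, and at 28.4, 74.6, 154, 297 and 717 CPM in the male-labelled library. The highest bin thus stood 41.9-fold (36.8 to 47.9) and 25.2-fold (21.9 to 29.2) above the lowest. Klf4 was at 16.6, 55.1, 130, 293 and 516 CPM, and at 23.5, 60.6, 103, 184 and 526 CPM, for 31.0-fold and 22.4-fold. Klf6 started from a higher base, with 192, 371, 584, 992 and 1540 CPM and 191, 273, 461, 630 and 1190 CPM, for 8.0-fold and 6.23-fold. Klf2 and Klf4 spanned a wider range than Klf6, which was well expressed even where Fos and Egr1 were low.

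Klf10, sparse as it is, also differed by this measure. It was at 27.5 and 18.6 CPM in the highest bin, against 8.08 and 7.17 CPM in the lowest, which is 3.41-fold (2.62 to 4.48) and 2.59-fold (1.87 to 3.64). Klf7 differed by 2.45-fold (2.26 to 2.65) and 2.09-fold (1.89 to 2.31), which overlaps Klf10, Klf9 by 1.89-fold and 1.76-fold and Klf13 by 1.57-fold and 1.37-fold. Klf15 had 17.4 and 27.3 CPM in the highest bin against 13.1 and 19.8 in the lowest, 1.33-fold (1.05 to 1.7) and 1.38-fold (1.11 to 1.72), with intervals that overlap those of Klf13 at 1.47 to 1.69 and 1.26 to 1.49. The median gene was at 0.9-fold and 0.954-fold. Of the 6 members at 20 CPM or more in both libraries, 5 (Klf2, Klf4, Klf6, Klf7 and Klf9) were at least 1.5-fold higher in the highest than in the lowest bin of both libraries, against 3.34% of all genes, and none was 1.5-fold lower, against 0.458%. Klf5 had too few UMIs for a fold. Cells of the highest bin were also deeper, with medians of 11646 and 10543 UMIs against 9436 and 8545 in the lowest. Their mitochondrial share was lower, at 3.82% and 3.64% against 4.69% and 4.66%. The part of depth and cell quality in these folds was not tested.

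**Figure D3:**
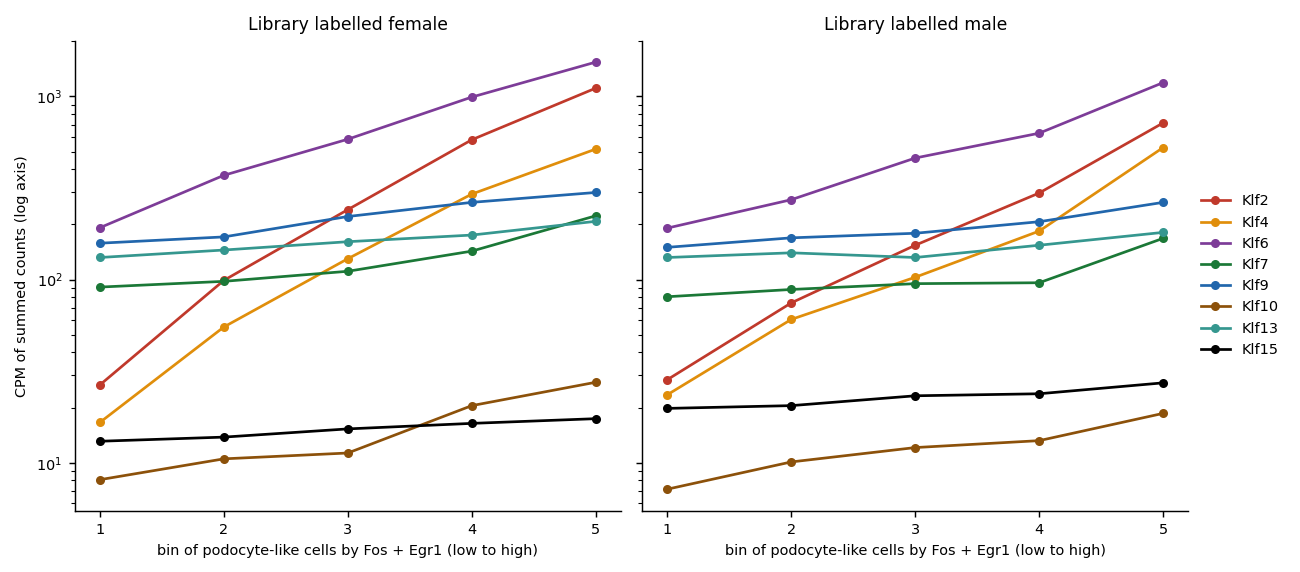
Levels of 8 members (CPM of summed counts, log axis) over the 5 bins of podocyte-like cells ranked by Fos and Egr1, low to high, with the female-labelled library on the left and the male-labelled library on the right. Klf2 and Klf4 climb steeply to 1110 and 516 CPM (left) and 717 and 526 CPM (right), while Klf15 stays between 13.1 and 27.3 CPM.

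The early-response members moved with each other. They were set apart by r with Fos and Egr1 across these same cells, so this and their likeness to early genes largely repeat that rule. Across podocyte-like cells, the mean r over both libraries was 0.357 for Klf2 with Klf6, 0.342 for Klf2 with Klf4 and 0.336 for Klf4 with Klf6. The other 33 of the 36 pairs had 0.126 or less. The genes most like them among 3221 were immediate early genes: Atf3 (mean r of 0.51), Fos (0.505) and Egr1 (0.503) for Klf2, Atf3 (0.492), Egr1 (0.473) and Fosb (0.46) for Klf4, and Fos (0.52), Atf3 (0.514) and Jun (0.51) for Klf6. For Klf7 they were Atf3 (0.163), Ifrd1 (0.152) and Junb (0.14), for Klf9 Egr1 (0.139), Fos (0.137) and Junb (0.129), and for Klf13 Atf3 (0.11), Fos (0.0941) and Fosb (0.0931). Among the rest of the KLF and SP family, Klf11 came nearest, with r from 0.0859 to 0.0977, and Klf3 from -0.00131 to 0.0101.

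Outside podocytes, Klf4 kept its link with Fos and Egr1 most widely, and Klf2 in part. Klf4 passed the limit of 0.2 in 6 of the 7 classes compared. Its mean r was 0.434 in parietal epithelial-like, 0.406 in mesangial-like, 0.403 in smooth muscle or renin-like, 0.373 in glomerular endothelial-like and 0.437 in arterial endothelial-like cells. In thick ascending limb-like cells it was 0.268, and there 1 of the 4 values was 0.163. Klf6 passed in arterial endothelial-like (0.246), smooth muscle or renin-like (0.34) and thick ascending limb-like cells (0.559), besides podocyte-like cells. Podocyte-like cells aside, these classes carried the most podocyte marker RNA, at 7150 and 7320, 5240 and 3640, and 6210 and 6030 CPM. Mesangial-like cells had 3950 and 1850, glomerular endothelial-like cells 1690 and 1900 and parietal epithelial-like cells 1520 and 724 CPM. The part of podocyte RNA in the r of Klf2, Klf4 and Klf6 was not tested. Klf2 passed in smooth muscle or renin-like (0.377) and thick ascending limb-like cells (0.393). In the endothelial classes, where Klf2 was most abundant, its mean r was 0.28 (arterial) and 0.23 (glomerular), with 0.112 to 0.239 in the female-labelled library and 0.289 to 0.411 in the male-labelled library. These classes hold 44 to 241 cells a library, so single values of r are loose. The same limit was met by 0.432% of genes in parietal epithelial-like, 0.349% in mesangial-like, 0.631% in smooth muscle or renin-like, 0.563% in glomerular endothelial-like, 0.667% in arterial endothelial-like and 1.04% in thick ascending limb-like cells.

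Cells of each of these 6 classes were cut into 3 equal groups by Fos and Egr1, and the high group set against the low one, to show how far each member differed with them. Klf2 in glomerular endothelial-like cells was at 2000 and 2790 CPM in the high group and at 1470 and 1460 CPM in the low group, 1.36-fold (1.23 to 1.51) and 1.91-fold (1.68 to 2.18). Klf4 there was at 1050 and 2200 CPM in the high group, against 411 and 593 CPM in the low group. In mesangial-like cells Klf2 differed by 1.42-fold and 2.75-fold, while Klf4 stood at 132 and 245 CPM in the high group against 8.32 and 21.6 CPM in the low group, 15.8-fold (7.1 to 43.9) and 11.4-fold (6.17 to 23.3). Parietal epithelial-like cells kept Klf4 at 258 and 335 CPM and Klf6 at 487 and 666 CPM in the low group. The part of podocyte RNA in these differences was not tested either.

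Between the libraries, most members were close in most classes. In podocyte-like cells, Klf2 was at 431 CPM in the female-labelled library and 264 CPM in the male-labelled library, a ratio of 1.64 (1.6 to 1.68). It was the only 1 of 7 members reaching 20 CPM in a library that stood at least 1.5-fold higher there, against 1.2% of 6163 genes. Klf15 was the only one at least 1.5-fold lower, against 0.422% of genes, with 15.3 against 23.1 CPM and a ratio of 0.663 (0.602 to 0.731), just inside the limit. Klf6 had a ratio of 1.35, Klf7 1.27, Klf9 1.16, Klf4 1.14 and Klf13 1.12. Klf10, under the minimum, had 1.28. Fos was at 4110 against 2920 CPM and Egr1 at 1840 against 1120 CPM, ratios of 1.41 and 1.64. The call for Klf2 or for Klf15 was lost under 6 of the alternative settings tried.

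The early response itself was spread unevenly. Of the podocyte-like cells, 23.4% in the female-labelled library and 9.11% in the male-labelled library lay in the 1 cluster, of 8, with the highest Fos and Egr1. This cluster was led by Atf3, Ifrd1 and Nr4a1, and its leading genes Ifrd1, Tnfaip3 and Nfkbia were not among those left out of the clustering. There Klf2 was at 1090 and 960 CPM, Klf6 at 1510 and 1550 and Klf4 at 493 and 690 CPM. Over the 8 clusters Klf2 was higher in the female-labelled library in 3 and lower in 5, and Klf6 higher in 2 and lower in 6. Klf4 and Klf15 were lower in the female-labelled library in 8 of 8.

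Cells of both libraries were then placed in 5 shared bands of Fos and Egr1, an alternative chosen after seeing the data. From the lowest band to the highest, the ratio of the female-labelled over the male-labelled library was 0.805, 1.0, 0.918, 1.04 and 1.27 for Klf2, against 1.64 over all cells, and 0.958, 1.09, 0.976, 1.09 and 1.08 for Klf6, against 1.35. For Klf4 the direction turned: 1.14 over all cells, but 0.571, 0.695, 0.802, 0.845 and 0.791 within the bands, each with an interval below 1. In the highest band Klf4 was at 482 against 609 CPM and in the lowest at 10.8 against 19.0 CPM. Klf15 kept its direction at 0.592, 0.664, 0.59, 0.777 and 0.56. Within the bands Fos itself had ratios from 0.729 to 1.05 and Egr1 from 1.06 to 1.42.

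A lower level in the female-labelled library across all 5 bands was seen for 2 of the 7 members and for 19.3% of all genes, across all 8 clusters for 2 of 7 and 10.5%, and across both for 2 of 7 and 9.18%. The direction alone was therefore common among genes. The early-response cluster held 954 and 334 cells and the cluster of lowest Fos 480 and 690 cells, so the libraries filled the clusters unequally.

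**Figure D4:**
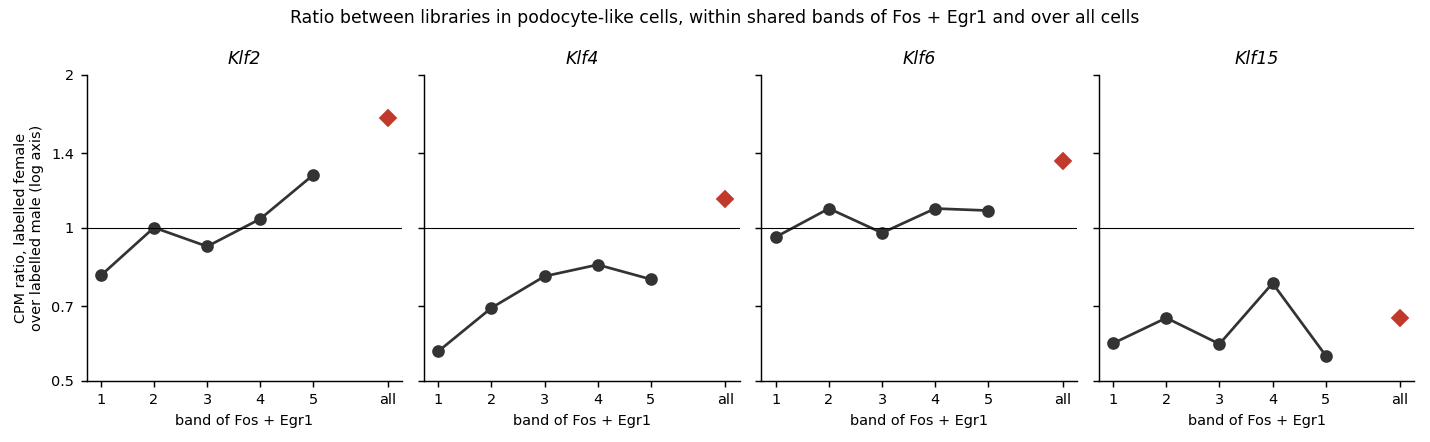
Ratio of the female-labelled over the male-labelled library (log axis) for 4 members in podocyte-like cells, within 5 shared bands of Fos and Egr1 from low to high (black) and over all cells (red diamond). The Klf2 and Klf6 ratios in the bands lie nearer to 1 than over all cells, Klf4 lies below 1 in every band but above it over all cells, and Klf15 is below 1 throughout.

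**Figure D5:**
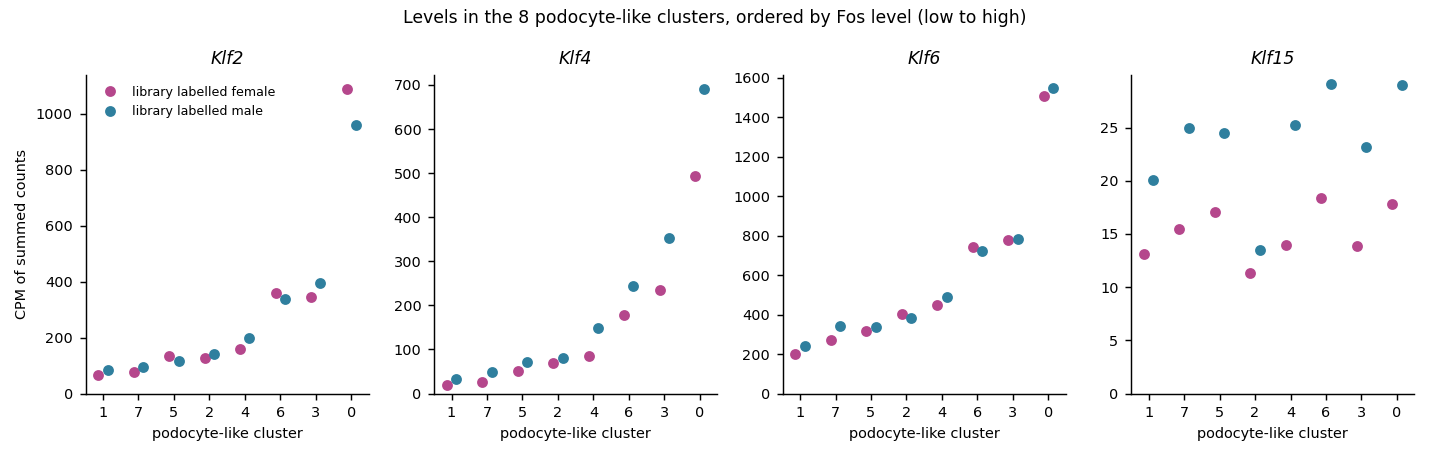
Levels of 4 members (CPM of summed counts) in the 8 podocyte-like clusters, ordered by Fos level from low to high, with the female-labelled library left of the male-labelled library. Klf4 and Klf15 are lower in the female-labelled library in 8 of 8 clusters, and Klf2 and Klf6 cross.

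In other classes the ratios went either way. Glomerular endothelial-like cells had Klf4 at 731 CPM in the female-labelled library and 1170 in the male-labelled library, a ratio of 0.627 (0.571 to 0.688), with Fos at 0.72 and Egr1 at 0.717. It was the 1 of 7 members at least 1.5-fold lower, against 7.56% of genes, with none 1.5-fold higher, against 10.8%. In mesangial-like cells Klf4 was at 65.7 and 119 CPM (0.55, 0.446 to 0.679), the 1 of 6 members lower (4.95% of genes), with none higher (5.5%). Arterial endothelial-like cells had none of 7 higher (6.61%) or lower (7.58%), and Klf4 stood at a ratio of 0.874 there. In parietal epithelial-like cells Klf2 was the 1 of 8 higher, at 139 against 87.8 CPM (1.58, 1.23 to 2.06, with 6.89% of genes), and none was lower (5.24%). With a mitochondrial limit of 50% the direction of Klf2 turned, to a log2 ratio of -0.207.

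Smooth muscle or renin-like cells had Klf7 (1.54, 1.11 to 2.15) and Klf10 (2.2, 0.798 to 6.59) of 8 higher (14.5% of genes) and Klf15 lower at 0.35 (0.0626 to 1.32, with 12.8%). The intervals of Klf10 and Klf15 include 1, and the share of genes past the limit was the highest of all classes. Thick ascending limb-like cells had Klf5 of 9 higher at 3.81 (1.95 to 8.0, with 6.57% of genes). The shares of cells with a Klf5 UMI were close, at 12.7% and 11.6%. Its 38 and 12 UMIs came from 7 and 8 cells, a spread over cells that the interval does not cover. Klf15 was lower at 0.601 (0.36 to 0.98, with 8.58%). The direction of Klf15 there turned with a mitochondrial limit of 10% (log2 ratio of 0.0787) and with thinned counts (0.224). The 5 erythroid markers summed to 11000 CPM in this class of the female-labelled library and 11 CPM in the male-labelled one, and the endothelial markers Emcn and Pecam1 stood at 70.2 and 35.1 CPM against 1.58 and 0.789 CPM. Their part in both ratios was not tested. Klf15 had a ratio below 1 in podocyte-like, parietal epithelial-like (0.686), mesangial-like (0.594), smooth muscle or renin-like and thick ascending limb-like cells. Arterial endothelial-like cells, with 4 and 2 UMIs, had 1.69 (0.242 to 18.6). The interval lay below 1 in podocyte-like cells and, with the limit of 20%, in thick ascending limb-like cells, and included 1 in the other classes named here.

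Genes tied to single members by earlier work were listed beside them. Of 9 genes that Klf2 and Klf4 regulate in endothelium, 7 reached 20 CPM in each endothelial class, 6 of them the same in both. All 7 stood at least 2-fold above podocyte-like cells in both libraries, against 20% of all genes (glomerular) and 15.4% (arterial). None of the 9 reached 20 CPM in podocyte-like cells. The 7 thus passed the minimum only through endothelium, which largely fixed this count beforehand. Sele, a leukocyte adhesion molecule, passed in glomerular endothelial-like cells alone, and Vcam1, another, in arterial endothelial-like cells alone. Nos3, the endothelial nitric oxide synthase, was at 60.4 and 61.6 CPM in glomerular and 115 and 112 CPM in arterial endothelial-like cells, and Thbd, the anticoagulant thrombomodulin, at 279 and 378 and at 434 and 350 CPM. Most of these genes mark endothelium, so that the count repeats the typing. Edn1, which Klf2 represses and which is also an arterial marker here, was at 32.7 and 72.7 CPM in glomerular and 323 and 374 CPM in arterial endothelial-like cells. Sco2, the mitochondrial assembly gene tied to Klf6 in podocytes, was at 5.77 and 6.96 CPM in podocyte-like cells.

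Klf9 and Klf15 are known targets of the glucocorticoid receptor. Of 9 genes induced by glucocorticoids, 6 reached 20 CPM in podocyte-like cells and 3 were at least 1.5-fold higher in the female-labelled library, against 1.2% of all genes, with a median log2 ratio of 0.435 against -0.0142 over all genes. Fkbp5, the receptor's co-chaperone, was at 35.0 against 19.7 CPM there, and Tsc22d3, the glucocorticoid-induced leucine zipper, at 273 against 222 CPM. Klf9 was at 226 against 195 CPM and Klf15, as above, at 15.3 against 23.1 CPM. In glomerular endothelial-like cells 6 of 9 glucocorticoid genes were higher and none lower, against 10.8% and 7.56% of all genes, with a median of 0.657 against 0.0214 over all genes, while Klf9 was at 528 against 469 CPM. Of 11 clock-output genes, which Klf9 and Klf15 accompany in many tissues, 2 of 8 in podocyte-like cells and 4 of 7 in glomerular endothelial-like cells were higher, with none and 1 lower, beside the same shares of all genes. Per1 is on both lists. Dbp, a clock-driven factor, stood at 121 against 16.8 CPM in the second class. Other classes had fewer such genes higher than that class. Glucocorticoid genes were higher for 3 of 8 in parietal epithelial-like, 2 of 8 in arterial endothelial-like and 2 of 9 in thick ascending limb-like cells. Mesangial-like cells had 1 of 9 higher and 2 lower, and smooth muscle or renin-like cells 1 of 7 higher and 1 lower. Clock genes ranged from 0 of 7 higher in thick ascending limb-like to 3 of 10 in parietal epithelial-like cells.

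The 5 podocyte differentiation genes, which Klf15 and Klf4 are known to sustain, showed no member 1.5-fold apart in podocyte-like cells, with a median log2 ratio of -0.0213. Nphs1, the slit diaphragm protein nephrin, was at 1520 and 1460 CPM. The list of 24 early-response genes had 12 of 20 higher and none lower, against 1.2% and 0.422% of all genes, with a median of 0.612. Of the 17 other KLF and SP genes, 6 reached 20 CPM in podocyte-like cells and none was 1.5-fold apart. Klf3 was at 44.5 and 44.1 CPM, and Sp1, the general activator of GC-box promoters, at 66.1 and 73.8 CPM. In endothelium Klf3 stood with the members, at 311 and 348 CPM in glomerular and 341 and 309 CPM in arterial endothelial-like cells, and Klf12 at 49.5 and 86.7 and at 53.3 and 51.7 CPM.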

How the data were processed

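Single-cell RNA counts of glomerular cells from 2 mice were used, 1 library per group. The authors deposited whole-number UMI counts for each gene and barcode, and nothing in the files shows any scaling. Cell Ranger 6.1.2, STAR 2.7.5a and the build mm10 are named in the submitters' processing notes. The filter for cells, the annotation and the strand setting are, for these data, not given in the sources used here, so reads of overlapping genes cannot be told apart.

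Barcodes with over 20% mitochondrial UMIs or under 500 genes were left out. Cells were clustered (scanpy 1.11.5, leidenalg 0.10.2, 2000 variable genes, 30 components, 20 neighbours, resolution 1.0) without the 9 members and 24 early genes, which gave 19 clusters. A name needed 3 markers, and 3 clusters stayed unnamed. This naming rule and the minimum of 40 cells a class were set after the clusters were seen. Scrublet called 3 and 1 cells and has not worked, so mixed cells remain.

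Counts were summed per class and library as CPM, with exact Poisson, conditional binomial (ratios) and Clopper-Pearson (shares) intervals. A count of 0 was read as allowing 3 counts. Gene counts use a minimum of 20 CPM, and log2 ratios a prior of 10 CPM. Early-response means r of 0.2 or more with Fos and Egr1 in both libraries, and stable means under 0.1 in size. Thinning, correlation calls and ratio intervals were tested on simulated data. Named were the members, Fos and Egr1, the 3 genes most like each member, and the highest members of each list, besides a few others chosen after their values were seen. The members and lists were chosen with earlier results of these data known.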

Additional observations from a re-analysis of the deposited data

How the results depend on the processing

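No paired analysis was possible because each group has 1 library and no test was run. The count of early-response members in podocyte-like cells was 3 under every alternative tried, including r of 0.15, Spearman's coefficient, full counts, each library alone, and the early genes kept in clustering. The 2 members at least 1.5-fold apart between libraries in podocyte-like cells became 1 with a mitochondrial limit of 10% or 50%, with clusters named by marker score alone, with the mean of each cell's CPM, with thinned counts, and without the cluster of highest Fos and Egr1. Within the shared bands, added after seeing the data, the count was 0, 1, 1, 0 and 1. In the lowest band Klf4 and Klf15 were past 1.5-fold, at ratios of 0.571 and 0.592, but under the minimum of 20 CPM. The count of members 2-fold above podocyte-like cells in thick ascending limb-like cells, 1, became 0 with thinned counts and 0 in the male-labelled library alone, and that in mesangial-like cells, 0, became 1 (Klf2) in the male-labelled library alone. Of 558 log2 ratios of a member in a class, 521 moved by less than their counting interval, 34 moved by more and 3 were counted as reversed. Of these 3, Klf15 in thick ascending limb-like cells was 0.0787 with a mitochondrial limit of 10% and 0.224 with thinned counts. The other was Klf2 in parietal epithelial-like cells, at -0.207 with a limit of 50%. In podocyte-like cells the log2 ratio of Klf2, 0.69, ranged from 0.117 to 0.709 over 10 alternatives, that of Klf4, 0.174, from -0.185 to 0.21, and that of Klf15, -0.386, from -0.562 to -0.292. Klf4 thus changed sign there too, as did the sparse Klf5, at 0.0107 with a range from -0.0166 to 0.0741. The cause was not tested. With a limit of 10% no parietal epithelial-like class formed, and at resolution 0.5 the 2 endothelial classes merged. Depth limits Klf5, Klf10 and Klf15 most, and the small classes limit every r outside podocyte-like cells.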

Other observations

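The unnamed clusters held members too. Cells of the cluster led by Cst12, 160 and 135 in number, carried podocyte markers at 13200 and 14100 CPM, and Klf2 at 500 CPM in the female-labelled library and 310 CPM in the male-labelled library. Klf7 stood at 226 and 221 CPM there. The cluster led by Lyz2 and other leukocyte genes, with 21 and 58 cells, had Klf2 at 454 and 380 CPM, Klf4 at 391 and 345, Klf13 at 321 and 335 and Klf10 at 46.9 and 50.2 CPM, with no Klf5 or Klf15 UMI in either library. The cluster led by the cell cycle gene Cenpf, with 23 and 11 cells, had Klf2 at 1120 and 996 CPM.

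In thick ascending limb-like cells, some members called stable or intermediate in podocyte-like cells also differed between the high and the low group, of 3 cut by Fos and Egr1. Klf13 was at 159 and 194 CPM in the high group, against 68.1 and 60.1 CPM in the low group, and Klf10 at 47.0 and 38.2 against 14.8 and 12.5 CPM. Klf15 was at 13.1 and 23.9 against 26.6 and 45.0 CPM, and Klf9 at 261 and 311 against 281 and 275 CPM, with intervals of the fold that include 1 for both. This class also carried podocyte markers at 6210 and 6030 CPM, and their part in these folds was not tested.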
